A study of Mus musculus with 18 samples.

Results

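Interferon-stimulated genes are the genes that cells switch on when interferons, the antiviral cytokines, bind their receptors. The 39 genes described here were chosen by symbol: antiviral effectors, RNA and DNA sensors, the ISG15 system, transcription factors of the response and interferon-inducible GTPases. Of these, 37 were among the 17855 genes of the series, and 36 were in both the liver table (16533 genes) and the AML12 table (15579 genes). The GTPases Mx1 and Mx2 are not analysed here, and Cmpk2 is analysed in the liver only. After a minimum mean of 1 TPM, 34 members were tested in the liver and 22 in AML12 hepatocytes, 21 of them in both.

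Type I and type III interferons signal through JAK kinases to a factor complex that includes STAT2 and IRF9 and binds the interferon-stimulated response element (ISRE) in promoters. Interferon gamma acts through another element, GAS, and strongly induces the guanylate-binding proteins (GBP) and the immunity-related GTPases (IRG). Hepatocytes carry the receptors, and many of these genes are also transcribed at a low level without added interferon.

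The study asked how recombinant mouse serum albumin (rMSA) changes gene expression in diabetic mouse liver and in cultured hepatocytes. Bulk RNA was sequenced from the livers of 3 rMSA-treated and 3 saline-treated male db/db mice (B6.Cg-dock7m Leprdb/++/J), an obese and diabetic strain without a functional leptin receptor. Treated mice had rMSA at 1.5 mg per g of body weight by vein every 3 weeks, 3 doses in a 9-week course, and their controls had the same volume of saline. The age of the mice is not given in the sources used here. AML12, an immortalised line derived from hepatocytes of a mouse that carried a human TGF alpha transgene, was used in 4 groups of 3 libraries, all starved of serum overnight and then kept for 24 h with rMSA (600 µM) plus insulin (10 nM), with rMSA alone, with insulin alone or with vehicle. Insulin and dexamethasone were part of the medium in which the line was routinely grown. The methods say in general that experiments were repeated, but neither they nor the labels say whether the 3 libraries of an AML12 group were separate cultures, so p-values there measure only the spread between samples, which may be technical.

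Values are TPM, the share of each gene among all transcripts corrected for gene length and scaled to a fixed total, so levels of different genes may be set side by side within a table. The 2 tables were made separately, and levels are not tested across them. A gene is said to have risen or fallen where limma on log2(TPM + 1) gave an adjusted p under 0.05, and a fold change on this scale understates the change of genes near or below 1 TPM. Read counts cannot be had from TPM, and depth is therefore unknown. Hepatocyte markers were high in all livers. In AML12, Alb stood at 23.6 to 93.9 TPM, Hnf4a at 51.0 to 132 TPM, and Cps1, the first enzyme of the urea cycle, was at or near 0 TPM. Insulin libraries 1 and 2 stood apart, with 32.6% and 34.9% of their TPM in ribosomal protein genes, against 21.5% to 27.2% in the other AML12 libraries, and with a median TPM over tested genes of 14.6 and 11.2, against 16.2 to 22.6. The median log2 fold change of all tested genes was 0.12 in the liver. In AML12 it was 0.06 for rMSA and -0.30 for insulin, each against vehicle. For both agents together it was 0.21 against insulin and -0.15 against rMSA.

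Promoters are shown first, because the ISRE and GAS are elements through which interferons act on many such genes. RefSeq (GRCm38.p6) gave a window of 250 bases before the start and 50 after it for 29 members. The ISRE core, GAAA and again GAAA with 2 bases of any kind between them (read as TTTC on the other strand), was in the window of 17 of the 29 members (58.6%), against 3.99% of the 27025 genes with a window. The GAS core, TTCNNNGAA on either strand, was in 9 of 29 (31.0%), against 9.55%. All 5 GBP and IRG genes with a window held an ISRE core, as did 3 of 3 sensors and 3 of 4 IFIT genes, but 1 of 4 transcription factors. Below are stretches before the start used for Ifit3 and Ifit3b, the members that changed most, and for Isg15, with 3 overlapping cores. The last is from Oasl1, which rose in the liver and in both rMSA comparisons of AML12 and whose window holds no core. These stretches lie at chr19:34583359-34583438, chr19:34607755-34607834, chr4:156200819-156200918 (minus strand) and chr5:114923140-114923239, all but Isg15 on the plus strand, and capitals mark the ISRE core.
Ifit3: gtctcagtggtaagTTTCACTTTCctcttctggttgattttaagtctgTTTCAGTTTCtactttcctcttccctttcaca
Ifit3b: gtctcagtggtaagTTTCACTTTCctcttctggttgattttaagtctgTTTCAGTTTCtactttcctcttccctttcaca
Isg15: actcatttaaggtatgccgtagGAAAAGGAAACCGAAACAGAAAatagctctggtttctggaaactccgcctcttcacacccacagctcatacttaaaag
Oasl1: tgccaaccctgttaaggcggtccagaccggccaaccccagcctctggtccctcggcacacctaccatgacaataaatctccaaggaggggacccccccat
The Ifit3 and Ifit3b stretches are the same in all 80 bases, and the longest run of equal bases in their windows is 169. Their cores begin 156 and 122 bases before the start used for Ifit3 and 188 and 154 before that used for Ifit3b. The RefSeq gene intervals of Ifit3, Ifit3b and Oasl1 begin upstream of the starts used, at 34583119, 34607530 and 114923143. Their stretches thus lie wholly or almost wholly inside those intervals. A match is a description of letters, not of binding, and the absence of one says only that these letters are not in the window.

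In the livers of db/db mice, the OAS family and the RNA sensor genes Dhx58 and Ddx58 were higher with rMSA than with saline, whereas the interferon gamma-responsive GTPases had lower mean levels that did not pass the test. Of the 34 tested members, 11 rose (32.4%) and 0 fell in limma, where 21.8% of all 11398 tested genes rose and 8.38% fell. At an unadjusted p under 0.05, 16 of 34 members (47.1%) differed, against 41.2% of all genes. The groups did not overlap, with rMSA higher, in 14 members (41.2%), against 32.7% of all genes. The median log2 fold change was 0.27 over the tested members and 0.12 over all tested genes. A fold change of at least 2 (log2 of 1) was reached by 3 of the 11, Oas1a, Oasl1 and Dhx58, or 8.82% of the tested members, against 5.94% of all genes, and no member fell by as much (2.67% of all genes). In whole liver, fewer cells of a type and less RNA per cell cannot be told apart.

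The OAS family comprises enzymes that make 2'-5' oligoadenylates on double-stranded RNA and so switch on RNase L, and relatives without that activity or with other roles. All 4 tested members of the family rose, with a median log2 fold change of 1.05. Of these, Oas2 reached the minimum, with a mean of 1.025 TPM over all livers, only through its rMSA livers. Its place in this count thus depends on the filter, although it also passed without the filter. Oasl1, a relative known in mice to restrain IRF7 translation, had 16.4, 20.1 and 16.6 TPM in rMSA livers, against 7.30, 5.50 and 8.47 TPM in saline livers. Its log2 fold change was 1.22 (SE 0.17, limma adjusted p = 0.00119), and every rMSA liver was above every saline liver. Oas2 was at 1.55, 1.51 and 1.96 TPM in rMSA livers, against 0.36, 0.48 and 0.29 TPM in saline livers. This was a ratio of the means of 4.44 and, on the log2(TPM + 1) scale, a difference of 0.96 (SE 0.15, limma adjusted p = 0.00251). Oas1a stood at 4.73, 5.46 and 5.22 TPM with rMSA, against 2.62, 0.75 and 2.43 TPM with saline (log2 fold change 1.14, SE 0.27, limma adjusted p = 0.0145). The Oas2 and Oas1a groups were apart as well. Of the 50-base stretches of Oas1a transcripts 57.6% also occur in Oas1g, however, so reads of Oas1a and Oas1g may be shared or left out. Oasl2, with log2 fold change 0.76, completed the family (limma adjusted p = 0.0371).

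Among the sensors of nucleic acids, 2 of 5 rose. Dhx58 encodes LGP2, the RIG-I-like protein that tunes the other RNA helicases. It had 7.40, 8.78 and 8.25 TPM in rMSA livers, against 3.30, 2.78 and 3.32 TPM in saline livers, and the change of 1.15 (SE 0.14, limma adjusted p = 6.52e-04) had the smallest p of all members. Ddx58, which encodes RIG-I itself, ranged from 9.49 to 12.0 TPM with rMSA and from 6.72 to 7.52 TPM with saline (log2 fold change 0.50, limma adjusted p = 0.0257). Ifih1 (MDA5, -0.05), the Z-nucleic acid sensor Zbp1 (-0.34) and the kinase PKR gene Eif2ak2 (0.21) overlapped between the groups and did not pass. For Ifih1, the RIG-I-like gene that did not rise, the 95% interval ran from -0.82 to 0.72.

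Of the ISG15 system, Trim25, a ubiquitin ligase that also attaches ISG15 and acts on RIG-I, rose to 30.9, 29.2 and 36.2 TPM in rMSA livers, against 22.1, 21.6 and 24.0 TPM in saline livers (log2 fold change 0.49, SE 0.12, limma adjusted p = 0.0155). Isg15, the ubiquitin-like modifier, and Usp18, the protease that removes it and dampens the type I receptor, had log2 fold changes of 0.06 and 0.01, and their groups overlapped. Among the transcription factors, Stat2 was at 20.2, 16.0 and 20.4 TPM with rMSA, against 14.3, 11.2 and 11.6 TPM with saline (log2 fold change 0.57, SE 0.15, limma adjusted p = 0.0208). No rMSA liver was as low as the highest saline liver. Its partner gene Irf9 (0.10), the amplifier of interferon transcription Irf7 (0.01) and Irf1 (0.27) did not pass.

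The remaining effectors that rose were Xaf1, Ifi27 and Isg20. Xaf1, a pro-apoptotic partner of XIAP, had 4.67, 7.03 and 7.06 TPM in rMSA livers, against 3.56, 2.75 and 2.47 TPM in saline livers (log2 fold change 0.88, SE 0.19, limma adjusted p = 0.00986). Ifi27 was at 64.2, 57.8 and 38.1 TPM with rMSA, against 31.1, 28.6 and 33.1 TPM with saline (0.74, SE 0.19, limma adjusted p = 0.0181). In rMSA liver 3 it was close to the highest saline liver, while the other rMSA livers were far above. For Isg20, a 3'-5' exonuclease of RNA, the log2 fold change was 0.57, at limma adjusted p = 0.0335. The highest member of all was Bst2, which encodes the virion tether tetherin, with 285, 237 and 250.2 TPM in rMSA livers, against 259, 155 and 224 TPM in saline livers. These values overlapped (log2 fold change 0.30, limma adjusted p = 0.252). Rsad2 (viperin), Cmpk2, Ifi35, Rtp4, Parp14 and the IFIT genes Ifit1, Ifit3 and Ifit3b did not pass either, with log2 fold changes from -0.18 to 0.65. In Ifit3 (5.54 to 7.85 TPM with rMSA, 2.31 to 5.21 TPM with saline), Ifi35 and Rtp4 the groups nevertheless did not overlap.

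**Figure D1:**
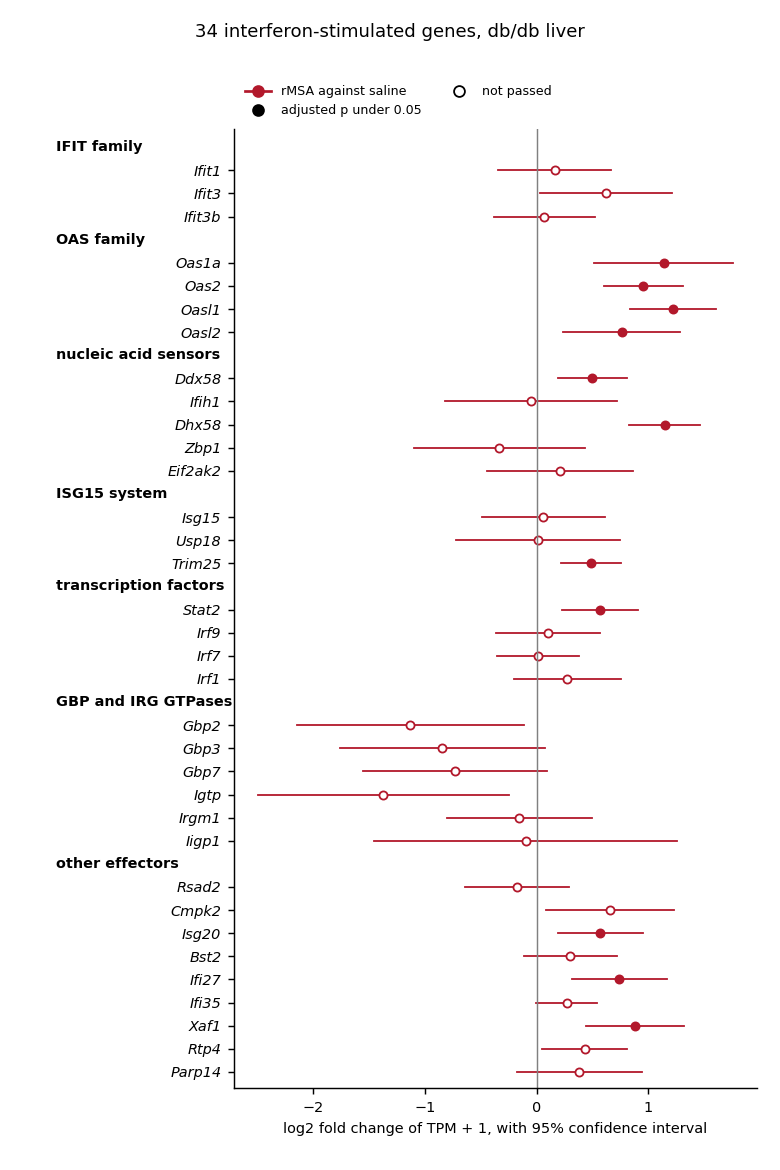
Log2 fold change of TPM + 1 (x axis), rMSA against saline, for the 34 tested interferon-stimulated genes in db/db liver, grouped by role, with the 95% confidence interval from limma over 3 mice a group; filled points have an adjusted p under 0.05. All 4 OAS genes lie to the right of 0 and all 6 GBP and IRG GTPases to the left, but none of the 6 is filled.

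The GBP and IRG GTPases, which attack the vacuoles of intracellular pathogens, had negative log2 fold changes in 6 of 6 cases with a median of -0.79, and none passed. Igtp (IRGM3) was at 25.1, 26.7 and 46.1 TPM in rMSA livers, against 142, 33.8 and 118 TPM in saline livers (log2 fold change -1.37, SE 0.49, limma adjusted p = 0.0678). Gbp2 was at 3.83, 5.43 and 12.3 TPM with rMSA, against 28.4, 9.90 and 12.6 TPM with saline (-1.13, SE 0.44, limma adjusted p = 0.0891). In both, the groups overlapped through 1 low saline liver, number 2, and rMSA liver 3. Gbp3 (-0.85), Gbp7 (-0.73), Irgm1 (-0.16) and Iigp1 (-0.10) overlapped as well. Saline liver 1 was the highest of the 6 livers for all 6 genes, and the sum of the 6 was 93.5, 76.4 and 160.1 TPM with rMSA, against 324, 103.5 and 179.5 TPM with saline. Without saline liver 1, 4 of the 6 were negative (median -0.40), as without rMSA liver 2 (4 of 6, median -0.57), and in the other alternatives every tested one of the 6 was negative.

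With each library centred on its median, which put the all-gene median at -0.02 (log2), 7 members rose and 4 fell, where 11 rose and 0 fell without centring. With it, 14.4% of all genes rose and 13.1% fell, against 20.6% and 11.8% of the members, so the share of members that fell was not above that of all genes. The 4 that fell were Gbp2 (-1.27, limma adjusted p = 0.0282), Igtp (-1.51, 0.0307), Gbp3 (-0.99, 0.0471) and Gbp7 (-0.87, 0.0487), and Ddx58, Trim25, Ifi27 and Isg20 no longer passed. Over all genes, the share of higher genes among those that passed went to 52.3% with centring, against 72.3% without it.

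**Figure D2:**
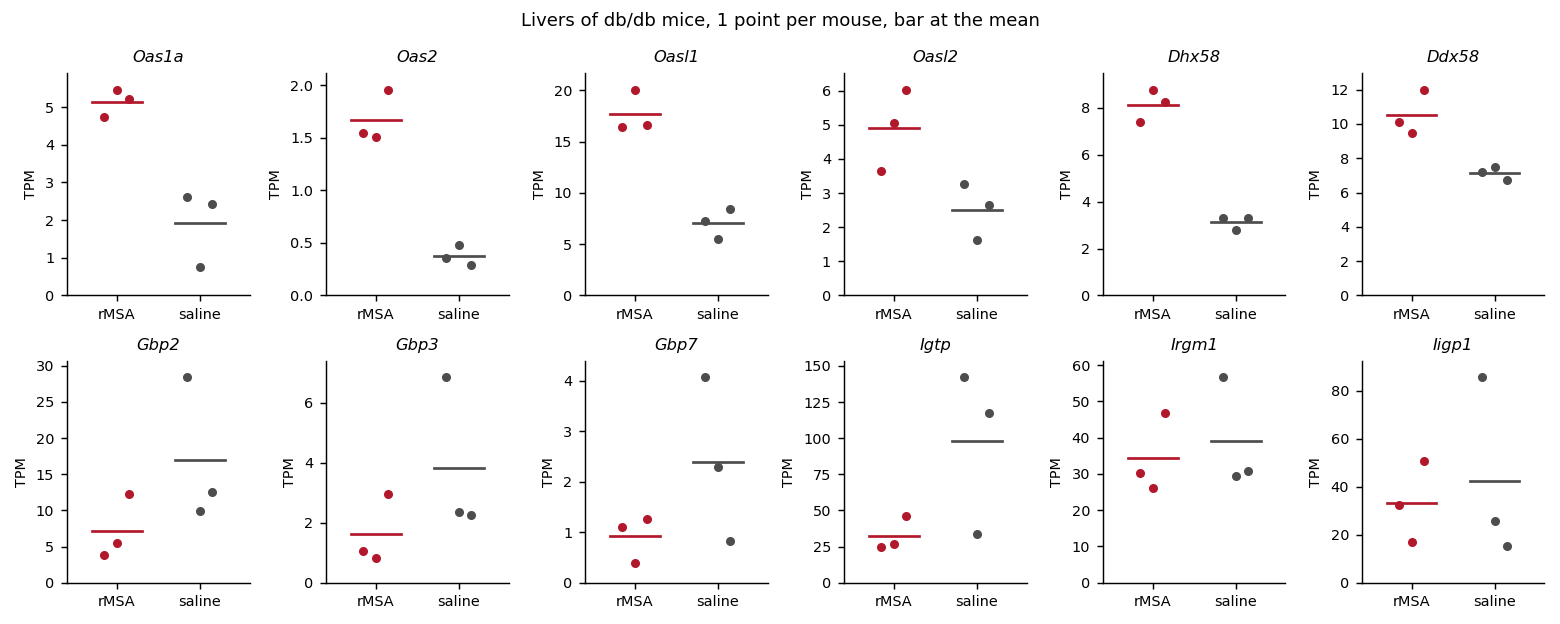
TPM (y axis, linear from 0) of 12 interferon-stimulated genes in db/db livers after rMSA or saline; each point is a mouse and each bar the mean of 3 mice. In the upper row (OAS genes, Dhx58, Ddx58) the groups do not overlap, whereas in the lower row (GBP and IRG GTPases) they do, and saline liver 1 is the highest point in each panel.

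Markers of other cells that could carry these transcripts were read beside them. The summed level of 10 T and NK cell markers was 6.80, 6.95 and 12.1 TPM in rMSA livers, against 26.6, 13.3 and 6.99 TPM in saline livers, none of the 10 was at 0 in all livers of a group, and saline liver 1 was again the highest. Of the 4 such markers that were tested, Cd3e fell (log2 fold change -0.71, limma adjusted p = 0.0319). The list was not uniform: Ncr1, below the minimum, was higher without overlap, at 0.43 to 0.74 TPM with rMSA and 0.06 to 0.19 TPM with saline. Neutrophil markers (5 genes) summed to 22.3 to 24.7 TPM with rMSA and to 9.17 to 13.6 TPM with saline, and B cell markers (4 genes) to 3.50 to 4.14 TPM and 1.23 to 2.39 TPM. Stellate cell markers (6 genes) summed to 236 to 320.3 TPM with rMSA and 108 to 229.5 TPM with saline. Macrophage and Kupffer cell markers (12 genes) overlapped at 672.5 to 982 TPM and 663 to 983 TPM, as did those of plasmacytoid dendritic cells. The plasmacytoid sum was mostly Irf8, at 6.62 to 10.17 TPM with rMSA and 7.8 to 11.14 TPM with saline. Siglech of that list, below the minimum, was higher without overlap, at 0.31 to 0.89 TPM and 0.0 to 0.23 TPM. Within the macrophage list, Marco (-3.04) and Timd4 (-1.27) of Kupffer cells fell and Cd68 (0.69) rose. Of the 8 hepatocyte markers themselves, Krt18, Apoa1 and Ttr rose and Hnf4a (-1.12) and Cps1 (-1.53) fell. The part of any of these cells in the changes above was not tested.

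Calls in the liver changed with the mice included. The number of members that passed was 6 without saline liver 2 or without rMSA liver 1, 7 without rMSA liver 2 or 3, and 10 or 11 without saline liver 3 or 1. Over all genes, 20.3% to 28.7% passed with a liver left out, against 30.2% with all livers. Isg20 lost its call without saline liver 2 or 3 or any rMSA liver, Ddx58 without any saline liver or rMSA liver 1 or 3, Oasl2 without saline liver 2 or rMSA liver 2 or 3, Ifi27 without saline liver 2 or rMSA liver 1 or 2, Stat2 without saline liver 2 or rMSA liver 1 or 3, and Trim25 without saline liver 2. Igtp passed without saline liver 2, Gbp7 without saline liver 3, Gbp2 without rMSA liver 3 and Cmpk2 without saline liver 1. Dhx58, Oasl1, Oas1a and Xaf1 passed without each liver in turn, and Oas2 in each case where it stayed above the minimum level.

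The rest of the pathway in the liver was read from lists of the same kind. Of 10 interferon genes searched for, Ifng and Ifnk were in the liver table, at no more than 0.30 TPM in any liver, so no ligand was tested. Among receptors, kinases and upstream factors, 2 of 12 tested genes rose and 1 fell: Ifngr2 (0.80, limma adjusted p = 0.00415) and Il10rb (0.91, 0.00293), subunits of the interferon gamma and interferon lambda receptors, rose, and Irf5 (-0.57, 0.0118) fell. Of 17 genes of nucleic acid sensing and its adaptors, 2 rose, the kinase gene Ikbke (1.45, limma adjusted p = 0.00126) and the adaptor Mavs of the RNA helicases (0.35, 0.0355). Ikbke was at 12.1, 17.5 and 21.2 TPM with rMSA, against 5.44, 6.14 and 4.73 TPM with saline, without overlap. Negative regulators showed 2 of 15 higher, Rnf125 (1.07) and Tnfaip3 (0.59), and 1 lower, Irf2bp2 (-0.87), with limma adjusted p between 0.00247 and 0.0264. Of 49 other tested interferon-stimulated genes, 8 rose and 3 fell, with a median log2 fold change of 0.15. In none of these 4 lists was the share that rose or the share that fell above the 21.8% and 8.38% of all tested genes. Lgals3bp (0.92), Dtx3l (0.92) and Lgals9 (0.46) were among those that rose, and the chemokine Cxcl9, known as a target of interferon gamma, fell to 7.03, 7.35 and 17.1 TPM in rMSA livers, against 50.2, 24.6 and 23.2 TPM in saline livers (-1.57, SE 0.37, limma adjusted p = 0.0142). The other 2 that fell, named after their values were seen, were the IRG gene Tgtp1 (-2.48, limma adjusted p = 0.0378) and the immunoproteasome subunit Psmb8 (-0.66, 0.0263). Tgtp1 overlapped between the groups, with 2.09, 2.23 and 13.0 TPM in rMSA livers, against 77.2, 10.8 and 25.1 TPM in saline livers.

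In AML12 hepatocytes the transcripts of Ifit3 and Ifit3b were between 15.6 and 16.8 times lower with rMSA, with and without insulin, while Oasl1, Usp18 and Ifi27 were higher. Of the 22 tested members, 3 rose and 3 fell with rMSA against vehicle (13.6% each), where 5.9% of all 10826 tested genes rose and 1.89% fell. With rMSA + insulin against insulin, 4 rose (18.2%) and 3 fell (13.6%), where 14.5% and 2.73% of all genes did. At an unadjusted p below 0.05, 11 of 22 members differed in each comparison, against 18.8% of all genes without insulin and 30.7% with it. Groups did not overlap in 9 members that were higher with rMSA (40.9%, against 25.5% of all genes) and 5 that were lower (22.7%, against 14.2%), and with insulin present in 5 that were higher (22.7%, against 20.7%) and 3 that were lower (13.6%, against 4.81%). A fold change of at least 2 was reached in both comparisons by Oasl1 upwards (1.52% and 2.29% of all genes) and by Ifit3 and Ifit3b downwards (0.286% and 0.406%). These comparisons share no library, but both come from 1 fit with a shared spread, so passing in both is not independent. The 3 genes that rose and the 3 that fell without insulin were the same ones with it, Isg15 being the fourth that rose. With only its own groups in the fit, the comparison with insulin kept Oasl1, Ifit3 and Ifit3b and lost Gbp2, Ifi27, Isg15 and Usp18. In the shared fit, 21 of the 22 log2 fold changes had the same sign. Of all genes, 5.28% rose in both and 1.34% fell in both, and 75.4% had the same sign. The median log2 fold change of the tested members was 0.20 without insulin and 0.16 with it, beside 0.06 and 0.21 for all genes.

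The IFIT family is known for proteins that bind foreign RNA and block its translation. Ifit3b, a near copy of Ifit3 next to it on chromosome 19, had 2.55, 1.32 and 1.57 TPM with rMSA, against 32.5, 25.9 and 30.4 TPM with vehicle. With rMSA + insulin it had 1.26, 0.79 and 0.82 TPM, against 19.9, 10.7 and 14.2 TPM with insulin. The level was thus 16.3 and 15.6 times lower, or -3.46 (SE 0.23, limma adjusted p = 7.73e-06) and, with insulin, -2.99 (SE 0.23, limma adjusted p = 1.47e-05) on the log2 scale. Ifit3 had 0.50, 0.52 and 0.44 TPM with rMSA, against 9.25, 7.59 and 7.68 TPM with vehicle. With both agents it had 0.30, 0.48 and 0.08 TPM, against 6.69, 2.89 and 3.95 TPM with insulin. Its changes of -2.62 without insulin (SE 0.22, limma adjusted p = 4.35e-05) and -2.05 with it (SE 0.22, limma adjusted p = 1.33e-04) on the log2(TPM + 1) scale understate ratios of the means of 16.8 and 15.7, since the rMSA levels are below 1 TPM. Every library with rMSA was below every library without it for both genes. Of the 50-base stretches of Ifit3 transcripts 51.2% also occur in Ifit3b, so reads of the pair may be split between them or left out. How such reads were counted is not known here, so a sum of the pair need not hold all of them. The sum of Ifit3 and Ifit3b was 3.05, 1.84 and 2.01 TPM with rMSA, against 41.7, 33.5 and 38.1 TPM with vehicle. It was 1.56, 1.27 and 0.90 TPM with both, against 26.6, 13.6 and 18.2 TPM with insulin. The fall of both genes passed under every alternative that was run and kept them.

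Ifit2, which lies beside them, differed by -0.61 without and -0.59 with insulin on the log2 scale (limma adjusted p = 0.242 and 0.159), with 3.95, 2.52 and 2.80 TPM with rMSA, against 6.08, 4.87 and 4.66 TPM with vehicle. The rMSA values were all below the vehicle values, but with insulin the groups overlapped (1.80, 1.18 and 1.53 TPM with both, against 2.92, 1.41 and 4.61 TPM with insulin). Ifit1, another gene of the cluster, was under the minimum level and not tested, at 0.49 to 0.64 TPM with rMSA and 0.34 to 0.42 TPM with vehicle. A fall of the size seen in Ifit3 and Ifit3b was thus not measured in either neighbour.

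**Figure D3:**
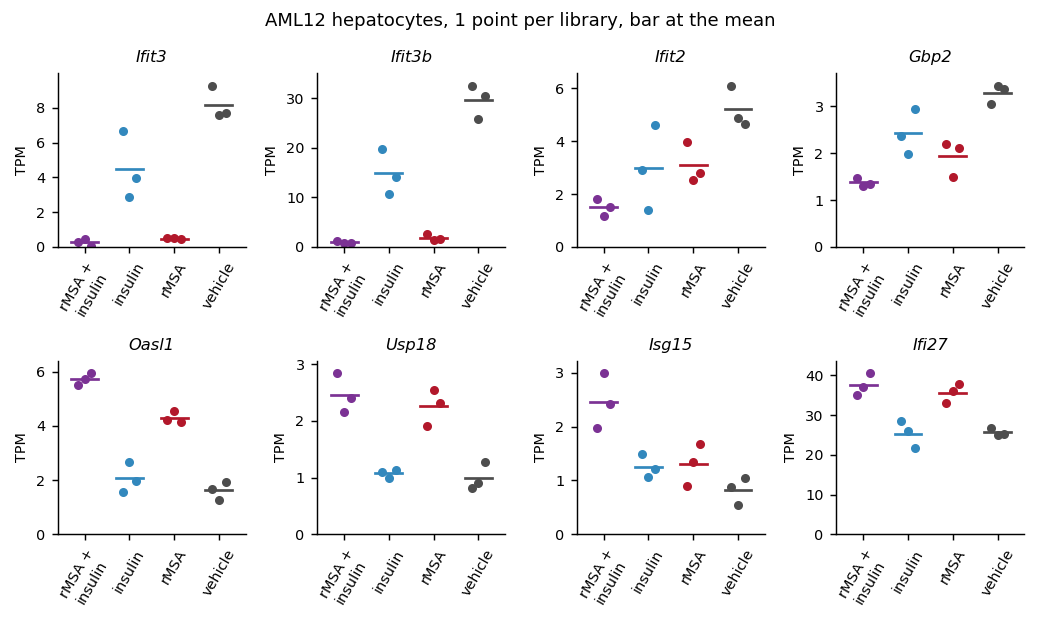
TPM (y axis, linear from 0) of 8 interferon-stimulated genes in AML12 hepatocytes with rMSA + insulin, insulin, rMSA or vehicle, each point being a library and each bar the mean of 3. Ifit3 and Ifit3b are near 0 in all 6 libraries with rMSA, at 2.55 TPM or less, and Oasl1 is above 4 TPM in all 6 and below 3 TPM in the 6 without it.

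Oasl1 was the member that rose most. It had 4.21, 4.55 and 4.15 TPM with rMSA, against 1.68, 1.25 and 1.92 TPM with vehicle, and 5.49, 5.73 and 5.93 TPM with rMSA + insulin, against 1.56, 2.68 and 1.95 TPM with insulin. On the log2 scale it was higher by 1.03 without insulin (SE 0.15, limma adjusted p = 0.00144) and by 1.15 with it (SE 0.15, limma adjusted p = 4.82e-04), and no library with rMSA overlapped one without. Oas1a, the other OAS gene of the 39 above the minimum, had log2 fold changes of 0.19 and 0.00, neither of which passed. Oas1c, from the list of other interferon-stimulated genes, was at 0.19 and -0.35 and passed in neither, with overlap without insulin and all values lower with it.

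Within the ISG15 system, Usp18 had 1.91, 2.54 and 2.32 TPM with rMSA, against 0.81, 0.91 and 1.28 TPM with vehicle, and 2.84, 2.16 and 2.40 TPM with both, against 1.10, 0.99 and 1.13 TPM with insulin. It rose by a log2 of 0.71 without insulin (SE 0.12, limma adjusted p = 0.00524) and 0.74 with it (SE 0.12, limma adjusted p = 0.00249). Isg15 had 0.90, 1.35 and 1.67 TPM with rMSA, against 0.87, 0.55 and 1.04 TPM with vehicle, which overlapped (0.34, limma adjusted p = 0.313). With rMSA + insulin it had 1.97, 2.99 and 2.42 TPM, against 1.49, 1.07 and 1.21 TPM with insulin, and rose (0.61, SE 0.16, limma adjusted p = 0.0268). The difference between these effects was not detected (interaction 0.27, 95% interval -0.24 to 0.79, limma unadjusted p = 0.264). The enzymes that load and pass on ISG15 were in the list of other interferon-stimulated genes. Ube2l6, which encodes its conjugating enzyme UBCH8, rose to 14.7, 11.9 and 12.9 TPM with rMSA, against 6.82, 7.06 and 6.85 TPM with vehicle (0.84, limma adjusted p = 0.00421), and by 1.06 with insulin present (limma adjusted p = 6.68e-04). Uba7, which encodes the activating enzyme, fell to 2.78, 2.72 and 2.07 TPM with rMSA, against 5.15, 4.72 and 4.91 TPM with vehicle (-0.76, limma adjusted p = 0.00407), and by 0.56 with insulin present (limma adjusted p = 0.0128). Genes of 1 conjugation pathway thus moved in opposite directions in the same libraries.

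Gbp2, the only GBP gene of the 39 above the minimum in AML12, had 2.20, 1.49 and 2.10 TPM with rMSA, against 3.04, 3.43 and 3.36 TPM with vehicle, and 1.48, 1.30 and 1.35 TPM with both, against 2.37, 1.99 and 2.95 TPM with insulin. Without overlap, it fell by a log2 of 0.55 (SE 0.13, limma adjusted p = 0.0276) and, with insulin, of 0.52 (SE 0.13, limma adjusted p = 0.0216). This call was lost, at limma adjusted p from 0.055 to 0.128 over both comparisons, when vehicle library 1, 2 or 3 or rMSA library 2 or 3 was left out of the comparison without insulin, and when insulin library 1 or any rMSA + insulin library was left out of the one with it. The other GBP genes tested in AML12 were in the list of other interferon-stimulated genes: Gbp4 rose without insulin (0.75, limma adjusted p = 0.00599) and, at 0.41, did not pass with it, and Gbp6, Gbp8, Gbp9 and Gbp10 passed in neither, with log2 fold changes from -0.06 to 0.37. Ifi27 had 33.0, 36.0 and 37.7 TPM with rMSA, against 26.7, 25.0 and 25.3 TPM with vehicle, and 35.0, 37.0 and 40.5 TPM with both, against 28.5, 25.9 and 21.6 TPM with insulin. The groups were apart in both comparisons, and the rise on the log2 scale was 0.45 without insulin (SE 0.11, limma adjusted p = 0.0313) and 0.55 with it (SE 0.11, limma adjusted p = 0.00686). Without insulin the call of Ifi27 was lost when any of the 6 rMSA and vehicle libraries was left out, and with the replicate number as a block (limma adjusted p = 0.0732), while the fold change stayed between 0.39 and 0.51 under each alternative run.

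Of the other members, none passed in either comparison. Bst2, the highest in AML12 too, had 370.0, 367 and 386 TPM with rMSA, against 311, 324 and 315 TPM with vehicle, and 374, 381 and 348 TPM with both, against 319, 350.4 and 288 TPM with insulin. It was higher by a log2 of 0.24 without overlap and by 0.21 with overlap (limma adjusted p = 0.0939 and 0.092). Isg20 (79.2, 81.6 and 91.1 TPM with rMSA, against 75.0, 78.8 and 83.7 TPM with vehicle) and Irgm1 (113, 109 and 99.7 TPM with rMSA, against 95.9, 84.0 and 87.6 TPM with vehicle) were the next highest. Isg20 overlapped, while the Irgm1 groups were apart but did not pass (0.26, limma adjusted p = 0.864). The spread is estimated over all 4 groups, and in the insulin libraries Irgm1 had 57.2, 24.1 and 87.9 TPM. For Ddx58 the difference was 0.62 in both comparisons, at limma adjusted p = 0.164 and 0.0968. The transcription factor genes Stat2, Irf9, Irf7 and Irf1 ranged from -0.29 to 0.33.

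**Figure D4:**
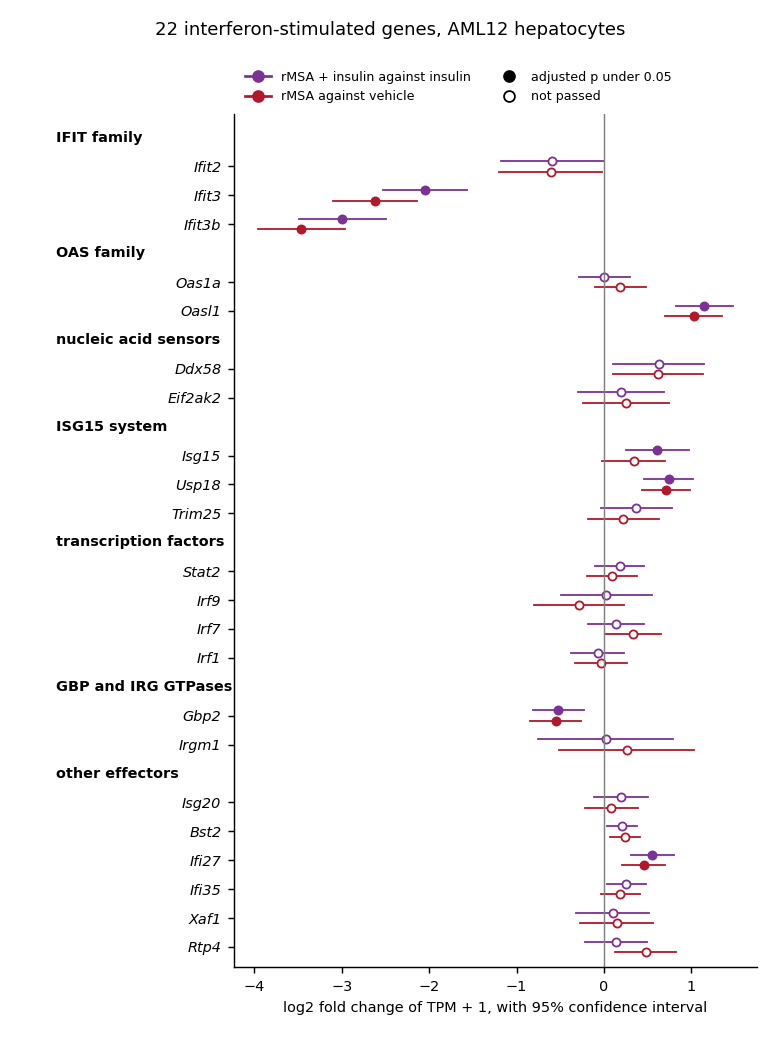
Log2 fold change of TPM + 1 (x axis) of the 22 tested interferon-stimulated genes in AML12 hepatocytes, grouped by role, with both agents against insulin (purple, upper) and with rMSA against vehicle (red, lower), with the 95% confidence interval from limma; filled points have an adjusted p under 0.05. Ifit3 and Ifit3b lie at -2.05 or below in both comparisons, apart from the other 20 genes.

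The counts depended on the libraries and the fit. Isg15 lost its call without insulin library 2 or without rMSA + insulin library 2 or 3. Without insulin library 3, 12 members passed for rMSA + insulin against insulin, 9 higher (39.1% of 23 tested, against 49.0% of all genes) and 3 lower (13.0%, against 4.88%), with Ddx58, Eif2ak2, Igtp, Stat2 and Trim25 added. Without insulin libraries 1 and 2, which leaves 1 insulin library assumed to vary like the other groups, 12 also passed, 6 higher and 6 lower (26.1% each, against 13.3% and 16.9% of all genes). Bst2, Ifi35 and Isg20 were then added as higher and Ifit2, Irf1 and Irgm1 as lower, and Isg15 was lost (limma adjusted p = 0.0596). The same omission leaves the values of rMSA and vehicle as they are but narrows the shared spread, and 11 members passed there, 7 higher (30.4%, against 15.4% of all genes) and 4 lower (17.4%, against 6.7%), with Bst2, Ddx58, Igtp and Rtp4 added as higher and Ifit2 as lower. Fitted on the 6 libraries of each comparison, 12 passed for rMSA against vehicle, 8 higher (34.8%, against 16.9% of all genes) and 4 lower (17.4%, against 7.37%). With insulin present 3 did, Oasl1 upwards (4.55%, against 2.7%) and Ifit3 and Ifit3b downwards (9.09%, against 0.392%). With median centring, 2 rose and 4 fell in the comparison without insulin, and 2 rose and 5 fell in the one with it. Those that rose were 9.09% of the members in each, against 5.61% and 6.53% of all genes, and those that fell were 18.2% and 22.7%, against 3.08% and 6.84%. Usp18 (0.64 and 0.48) and Ifi27 (0.39 and 0.30) then no longer passed in either, nor did Isg15 (0.36) with insulin, whereas Ddx58 rose and Ifit2 fell in both. Over all genes, centring took the share of higher genes among those that passed to 64.6% and 48.9%, against 75.7% and 84.2%.

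Insulin alone changed no member in limma at an adjusted p under 0.05, as it changed none of all tested genes (0.0%). At an unadjusted p under 0.05, 13 of 22 members (59.1%) differed between insulin and vehicle, against 36.7% of all genes. Their median log2 fold change was -0.31, beside -0.30 for all genes. Ifit3b was at 19.9, 10.7 and 14.2 TPM with insulin, against 32.5, 25.9 and 30.4 TPM with vehicle (-0.98, limma adjusted p = 0.135). Stat2 was at 20.7, 19.6 and 27.0 TPM with insulin, against 36.5, 33.5 and 32.9 TPM with vehicle (-0.60, limma adjusted p = 0.135). Neither gene overlapped between the groups, and of the 22 members 7 were lower without overlap (31.8%, against 11.8% of all genes) and 2 higher (9.09%, against 4.35%). Without insulin library 3, which leaves the 2 insulin libraries that stood apart, 12 members were lower (52.2% of 23 tested) and 2 higher (8.7%), among them Ifit3b (-0.96), Stat2 (-0.74), Irf9 (-0.92) and Irgm1 (-1.24), but 61.3% of all genes were lower and 7.11% higher in the same fit. Without libraries 1 and 2 no member passed in limma, where 0.129% of all genes did. Insulin library 2 was the lowest of the 12 libraries for 8 of the 22 members.

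When insulin was added to rMSA, no member passed in limma, where 2.95% of all genes rose and 1.1% fell, and 13 of 22 (59.1%) had an unadjusted p under 0.05, against 26.9% of all genes. Stat2 came nearest, at 26.0, 22.9 and 27.2 TPM with rMSA + insulin, against 39.9, 35.2 and 34.8 TPM with rMSA (-0.52, SE 0.13, limma adjusted p = 0.0508). The groups were apart for Stat2 and for 10 other members that were lower (11 of 22, against 37.1% of all genes), and 4 were higher without overlap (18.2%, against 18.6%). Irgm1 was at 57.2, 41.3 and 54.0 TPM with both, against 113, 109 and 99.7 TPM with rMSA (-1.07, limma adjusted p = 0.106). This count of 0 rests on insulin libraries 1 and 2, which are in neither group but in the shared spread: without them 14 members passed, 10 lower (43.5% of 23 tested, against 36.9% of all genes) and 4 higher (17.4%, against 14.4%), with Irgm1 at limma adjusted p = 2.89e-04 and Stat2 at 0.0021. With only both groups in the fit 12 passed, 8 lower (36.4%, against 30.6%) and 4 higher (18.2%, against 12.0%). The interaction of rMSA and insulin passed for no member in limma, where 0.0369% of all genes did, and 0 of 22 members had an unadjusted p under 0.05, against 6.45% of all genes. For Ifit3 it was 0.57 (95% interval -0.11 to 1.25) and for Ifit3b 0.47 (-0.24 to 1.18). These intervals do not show that rMSA acted alike with and without insulin.

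Other genes of the pathway in AML12 were counted from the same lists as in the liver. Of the interferon genes searched for, Ifnk was in the table, listed at 0 TPM in all libraries but 1. Among negative regulators, 2 of 13 rose in both comparisons, the JAK inhibitor genes Socs1 (0.98 and 0.96, limma adjusted p = 0.0013 and 9.85e-04) and Socs3 (0.65 and 0.79, limma adjusted p = 0.0303 and 0.00651). Socs1 had 2.22, 1.94 and 1.81 TPM with rMSA, against 0.43, 0.56 and 0.56 TPM with vehicle, and 1.72, 2.12 and 2.14 TPM with both, against 0.24, 0.64 and 0.79 TPM with insulin. No library with rMSA overlapped one without it. Of 18 genes of nucleic acid sensing and adaptors, 3 rose without insulin and 4 with it: Ikbke (0.92 and 0.79), Tmem173, the DNA-sensing adaptor STING (0.73 and 0.62), the DNA sensor gene Aim2 (0.47 and 0.57) in both, and the adaptor Myd88 (0.59) with insulin. Receptors, kinases and factors upstream had 0 of 11 changed without insulin in limma (3 at an unadjusted p under 0.05), and with it the receptor subunits Ifnar2 (0.39) and Ifngr1 (0.64) rose. Of 28 other interferon-stimulated genes, 4 rose and 1 fell without insulin, and 4 rose and 3 fell with it. Slfn2, of the growth-regulating Schlafen family, rose in both (1.03 and 0.87, limma adjusted p = 2.50e-05 and 5.06e-05), as did Ube2l6, while Uba7 fell in both. Gbp4 (0.75) rose without insulin and the immunoproteasome subunit Psmb10 (-0.76) fell with it, and their interactions with insulin were -0.33 and -0.60 (limma adjusted p = 0.919 and 0.589). The shares of all genes that rose and fell were 5.9% and 1.89% without insulin and 14.5% and 2.73% with it. Of the 7 hepatocyte markers in the table, Ttr fell in both comparisons (-1.74 and -1.29, limma adjusted p = 0.00327 and 0.0103) and Apob rose without insulin (1.18, 0.0217), and their sum was 2383 to 2425 TPM with rMSA and 2179 to 2415 TPM with vehicle. The 3 macrophage markers in the table summed to 7.65 to 8.42 TPM with rMSA and 6.64 to 8.0 TPM with vehicle. Among them Csf1r was at 0.34 to 0.41 TPM with rMSA and 2.65 to 2.98 TPM with vehicle, while Cd68 was higher without overlap but did not pass (0.62, limma adjusted p = 0.0683). S100a8 of neutrophils was at 57.3 to 72.8 TPM with rMSA and 15.7 to 17.5 TPM with vehicle. The 4 T and NK cell markers in the table summed to 0.02 to 0.40 TPM over all libraries.

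Members below the minimum were not tested and are given by level. In the liver these were Ifit2 (0.84, 1.02 and 2.04 TPM with rMSA, against 0.90, 0.40 and 0.34 TPM with saline), Oas3 (0.71, 0.80 and 0.86 TPM, against 0.46, 0.39 and 0.49 TPM) and Ifi44 (0.84, 0.45 and 1.07 TPM, against 0.47, 0.44 and 0.22 TPM). Only Oas3 was apart between the groups, and without the filter it passed (0.31, limma adjusted p = 0.0264), while Oasl2 and Isg20 then lost their calls. In AML12, 14 members were below it. Igtp was the highest of them, at 1.24, 1.38 and 1.63 TPM with rMSA, against 0.51, 0.67 and 0.86 TPM with vehicle, and 1.33, 1.06 and 1.32 TPM with both, against 0.63, 0.45 and 0.80 TPM with insulin. It was apart in both comparisons and passed in both without the filter, Oas3 did so without insulin and Zbp1 with it. Parp14, Ifit1, Dhx58, Oasl2, Ifih1 and Gbp3 had means from 0.138 to 0.589 TPM, and Ifi44, Rsad2, Oas2, Iigp1 and Gbp7 had means of 0.04 TPM or less.

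The levels in both experiments are set side by side without a test. The number of members below a mean of 1 TPM was 3 of 37 in the liver and 14 of 36 in AML12, and Bst2 was the only member above 100 TPM on average in each (235 and 344.5 TPM). Igtp and Iigp1, with means of 65.2 and 37.8 TPM in the liver, were at 0.99 and 0.0108 TPM in AML12, while Ifit3b was at 10.7 to 32.5 TPM in AML12 libraries without rMSA and at 0.65 to 1.58 TPM in saline livers. Of the 21 members tested in both, 2 rose with rMSA in both the liver and AML12 without insulin, Oasl1 and Ifi27. These were 2 of the 8 that rose in the liver and 2 of the 3 in AML12, or 9.52% of the members tested in both, against 1.55% of the 9511 genes tested in both. With the replicate number as a block in AML12, Ifi27 did not pass there and Oasl1 alone was left (4.76%, against 1.32%). Median centring took the call of Ifi27 in both experiments. The AML12 call was also lost without any rMSA or vehicle library, and the liver call without saline liver 2 or rMSA liver 1 or 2. In the main fits no member passed in opposite directions, and 16 of 21 had the same sign (76.2%, against 53.2% of all genes). Ifit3 was an exception in sign, at 0.62 in the liver (limma adjusted p = 0.106) and -2.62 in AML12, and Ifit3b was at 0.07 and -3.46. Gbp2 was negative in both, at -1.13 and -0.55.

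**Figure D5:**
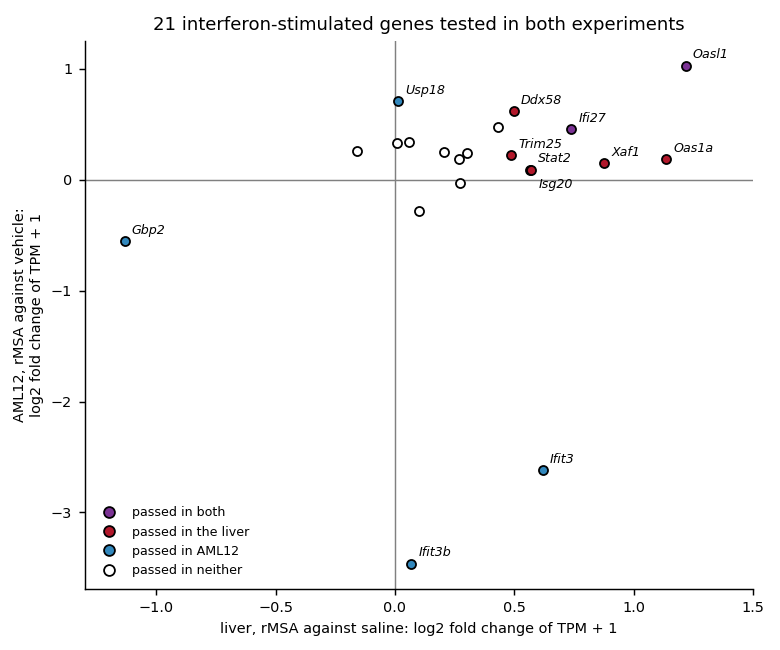
Log2 fold change of TPM + 1 of the 21 interferon-stimulated genes tested in both experiments, in the liver for rMSA against saline (x axis) and in AML12 hepatocytes for rMSA against vehicle (y axis), with colours for the experiments in which the adjusted p was under 0.05. Oasl1 and Ifi27 passed in both, at 1.22 and 1.03 and at 0.74 and 0.45. A replicate block took the AML12 call of Ifi27, and median centring took its calls in both experiments. Ifit3 and Ifit3b lie at -2.62 and -3.46 in AML12 but at 0.62 and 0.07 in the liver.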

How the data were processed

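Total RNA of 6 livers and 12 AML12 libraries was sequenced after ribosomal RNA depletion and oligo(dT) selection, both of which the labels name. The submitters' processing notes list Trimmomatic 0.33, STAR 2.5.2b, featureCounts (Subread 1.6.0) and the genome build GRCm38. The authors deposited TPM per gene, in separate tables for liver and AML12, and tested counts, which are not used here, with DESeq2. All columns of both tables were used.

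Genes whose mean reached 1 TPM were tested on log2(TPM + 1) with limma 3.58.1 (R 4.3.3, two-sided, with a mean-dependent prior), with Benjamini-Hochberg adjustment over all genes of an experiment. The 4 AML12 groups shared a fit. The fits were tested on simulated data with known changes, in which libraries were independent and each gene had the same spread in all groups. Libraries that stand apart or vary together were not simulated, so the fits were not tested for them. The symbols Ddx58 and Tmem173 are used as in the liver table, and AML12 rows were matched by gene identifier.

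Members, gene lists and alternatives were chosen with earlier results of these data known. Values in every library are given for up to 8 members per comparison with the smallest p among those that passed, for members that passed in several, and for the 3 highest in each experiment. 1 gene of the list of receptors, kinases and upstream factors is not reported here. From each other list, up to 4 genes per comparison with the smallest adjusted p are named. Further values were chosen after they were seen: those of Ddx58, Ifit2, Bst2, Igtp and Gbp2 where they did not pass, and of members below the minimum.

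Deviations from the group means were correlated between same-numbered libraries of rMSA and vehicle (r = 0.53, 0.14 and 0.58). Some unlike-numbered libraries were also correlated, such as vehicle library 1 and insulin library 3 (r = 0.64). These values do not settle whether the numbers pair the samples, and no label says so. The main fits had no replicate block. Alternatives were other pseudocounts and minimum levels, median centring, rescaling without the 50 highest genes, array weights, the replicate block, each library left out, the compared groups alone and omission of insulin libraries 1 and 2. Promoter and transcript sequences were from RefSeq (GRCm38.p6) and GENCODE M21.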

Additional observations from a re-analysis of the deposited data

Results flagged for a closer look

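Ifit3 moved in opposite directions in the animals and in culture. In the liver its log2 fold change for rMSA against saline was 0.62, with 5.54, 6.78 and 7.85 TPM in rMSA livers, against 5.21, 5.05 and 2.31 TPM in saline livers. In AML12 hepatocytes it was -2.62 for rMSA against vehicle, with 0.50, 0.52 and 0.44 TPM, against 9.25, 7.59 and 7.68 TPM. Every rMSA library was above every saline one in the liver and below every vehicle one in AML12. The difference between the experiments was not tested, since their tables were normalized separately, and the liver value did not pass on its own (limma adjusted p = 0.106).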

How the results depend on the processing

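Of 446 values of single genes under alternatives, 369 stayed on the same side of the threshold in the same direction, 61 lost and 16 gained a call, and 0 reversed. These values cover chosen members, most of which passed in the main fit, in the liver and in both rMSA comparisons of AML12. Calls gained by other members or in other comparisons are not among them. Ifit3, Ifit3b and Oasl1 in both rMSA comparisons of AML12, and Dhx58, Oasl1, Oas2 and Oas1a in the liver, passed under each alternative that kept them above its minimum level. Members that passed numbered 11 in the liver, 6 for rMSA against vehicle, 7 for rMSA + insulin against insulin, and 0 for insulin against vehicle, rMSA + insulin against rMSA and the interaction. With a minimum of 5 TPM, where fewer members are tested, they were 7, 2, 2 and, for rMSA + insulin against rMSA, 1. Of all genes, 34.5%, 6.93%, 18.2% and 4.38% then passed. Array weights, whose estimation stopped before convergence in part of the fits, gave 18 for rMSA against vehicle, 13 for rMSA + insulin against insulin, 13 for insulin against vehicle, 19 for rMSA + insulin against rMSA and 4 for the interaction, where 68.0%, 59.4%, 66.0%, 91.3% and 35.9% of all genes passed. With the compared groups alone, they were 12, 3 and, for rMSA + insulin against rMSA, 12, where 24.2%, 3.09% and 42.6% of all genes passed. Without insulin libraries 1 and 2 they were 11 for rMSA against vehicle, 12 for rMSA + insulin against insulin and 14 for rMSA + insulin against rMSA. The last comparison also had 1 with 5 TPM added, 2 with no filter, 4 with median centring and 2 after rescaling without the 50 highest genes. Of all genes, 4.9%, 3.31%, 12.7% and 6.49% passed there, against 4.05% in the main fit. The cause of these shifts was not tested, other than the changed spread where libraries or groups left the fit. With each library left out in turn, the counts ran from 6 to 11 in the liver, 4 to 5 for rMSA against vehicle, 5 to 12 for rMSA + insulin against insulin, 0 to 14 for insulin against vehicle, and stayed at 0 for the other 2. The shares of all genes that passed were, in that order, 20.3% to 28.7%, 4.6% to 5.25%, 9.46% to 53.9% and 0.0% to 68.4%. They were 0.517% to 1.15% for rMSA + insulin against rMSA and 0.0% to 3.08% for the interaction.

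With the replicate number as a block, 5 members passed for rMSA against vehicle, with Ifi27 lost and no other call changed. The block gave 8 in the liver, 7 for rMSA + insulin against insulin and 0 elsewhere. Of all genes, 6.72% passed with it for rMSA against vehicle, against 7.8% in the main fit. In the liver the share was 19.0%, against 30.2%, and for rMSA + insulin against insulin 14.7%, against 17.3%. For rMSA + insulin against rMSA it was 2.7%, and for insulin against vehicle and the interaction 0.0%. Same-numbered libraries had r = 0.05, -0.41 and -0.39 in the liver, and 0.095, 0.79 and 0.80 for rMSA + insulin and insulin. Whether the numbers pair samples in any group is not given by the labels. TPM holds no read counts, so no counting error could be given for members near 0, such as Ifit3 with rMSA.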
